A study of Homo sapiens with 3 samples.

Results

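The genes described here are 40 human genes of protein folding in the endoplasmic reticulum (ER) and of the unfolded protein response, taken as a fixed list by their symbols, out of 20043 genes named on the array. This list and the further lists below were chosen with earlier results of these data known. Their shares, set beside those of all genes, are therefore descriptive only. The genes were measured in HCC-LM3, an established line of human hepatocellular carcinoma cells with epithelial morphology. One culture was exposed to cyclopamine (20 μM), which blocks the Hedgehog receptor component SMO, one to GANT61 (20 μM), which targets the Gli transcription factors, and one to the vehicle DMSO, each for 48 h. RNA of each culture was read on 1 Illumina HumanHT-12 v4 array. The design asks how gene expression in these cells responds when Hedgehog signaling is blocked at either of these steps.

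Proteins bound for the cell surface or the outside enter the ER through the Sec61 channel and are folded there by chaperones, lectins and enzymes that form disulfide bonds. Chains that do not fold are drawn back to the cytosol and destroyed, a route called ER-associated degradation. When unfolded chains build up, 3 membrane sensors, encoded by ERN1 (IRE1), EIF2AK3 (PERK) and ATF6, raise folding capacity through the transcription factors XBP1, ATF4 and the cleaved form of ATF6. Hepatocytes secrete most plasma proteins and are rich in this machinery.

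Because each condition has 1 array, a difference between a pair of arrays has no replicate check and no p-value is given. Values are the normalized signal intensities deposited by the authors. A gene is given by its brightest probe, and its difference is the log2 intensity on one array minus that on another. An intensity above 63.75, which is 1.5 times the most common value on each array, counted as above background. Of the 40 genes, 38 had a probe, and 34 of them passed this limit on 1 array or more and 32 on all 3. HERPUD1 and SEC61G have no probe named for them in the annotation used and were not analysed here. PDIA3, ERO1B, SEL1L and ERN1 were not above background on any array. As a gauge of error, the gaps within 2764 pairs of probes for one gene gave an SD of the log2 difference per probe. Estimated from the median absolute deviation, this SD was 0.38 for cyclopamine against DMSO, 0.43 for GANT61 against DMSO and 0.20 for GANT61 against cyclopamine. It is the spread between probes used below, and the plain SD was larger, at 0.46, 0.53 and 0.29. Either SD covers probes and not cultures, and 26 of the 38 genes have a single probe.

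The whole arrays set the frame for these values. Of the 9 measured reference genes of a list of 12, commonly used to scale expression data, 8 were lower with cyclopamine and 6 with GANT61 than with DMSO, with median log2 differences of −0.54 and −0.73. Their part in the differences below was not tested. The secreted hepatocyte products were at or near background in these cells, since ALB (albumin) read 69.6, 70.4 and 80.0 with DMSO, cyclopamine and GANT61, while AFP and the other 7 measured hepatocyte markers were not above the limit on any array. Of 5 epithelial markers, KRT8, KRT18 and EPCAM were above it on all 3 arrays, KRT8 (keratin 8) at 1423, 335 and 286. KRT19 and CDH1 were not above it on any array. Of 6 fibroblast markers COL1A1 was above it, at 205, 145 and 74.9, and no measured endothelial or immune marker was on any array. In such bulk RNA, fewer cells of a kind and less RNA per cell cannot be told apart.

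In promoters, the best known control sequence of these genes is the ER stress response element (ERSE), which reads CCAAT, any 9 bases and CCACG, with the factor NF-Y binding the first end and ATF6 the other. A shorter form, ERSE-II, reads ATTGG, any 1 base and CCACG. The RefSeq promoter windows of GRCh38.p14, which run from 250 bases before the start site to 50 after it, were searched for both on both strands. A window was matched for 37 of the 40 genes, not for DERL1, DERL3 and PDIA3, and 11 of the 37 held an exact ERSE or ERSE-II. Among all 27305 genes with a window the share was 0.161%. The core of the unfolded protein response element, TGACGTGG, was in the windows of DNAJC10 and HYOU1, against 0.927% of all genes. The sites of the 9 genes that were above background follow, because the same element occurs in genes whose values went opposite ways. Each is written 5′ to 3′ on the gene's own strand, with the element in capitals, so that an element on the opposite strand begins with CGTGG.
HSPA5, chr9:125241381-125241419, minus strand: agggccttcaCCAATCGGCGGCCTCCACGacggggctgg
HSP90B1 far site, chr12:103930206-103930244, plus strand: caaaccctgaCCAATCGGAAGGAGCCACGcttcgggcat
HSP90B1 near site, chr12:103930311-103930349, plus strand: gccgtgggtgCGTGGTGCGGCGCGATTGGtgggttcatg
CALR, chr19:12938374-12938412, plus strand: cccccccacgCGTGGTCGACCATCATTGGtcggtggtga
CANX, chr5:179698768-179698806, plus strand: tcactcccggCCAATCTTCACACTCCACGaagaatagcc
PDIA6, chr2:10812843-10812881, minus strand: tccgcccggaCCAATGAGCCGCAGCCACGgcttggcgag
CRELD2, chr22:49918544-49918582, plus strand: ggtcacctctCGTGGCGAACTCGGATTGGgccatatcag
XBP1, chr22:28800593-28800631, minus strand: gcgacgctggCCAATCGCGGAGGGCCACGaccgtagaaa
HYOU1 far site (ERSE-II), chr11:119057370-119057400, minus strand: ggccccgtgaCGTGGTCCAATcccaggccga
HYOU1 near site (ERSE-II), chr11:119057264-119057294, minus strand: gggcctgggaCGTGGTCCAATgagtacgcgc
SDF2L1 (ERSE-II), chr22:21642104-21642134, plus strand: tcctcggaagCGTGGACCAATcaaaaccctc

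The far ERSE-II of HYOU1 overlaps its TGACGTGG match. The ERSE of HSPA5 lies 66 to 48 bases before the start site and that of CALR 225 to 207 bases before it. These windows are shown whole, with the ERSE in capitals, because HSPA5 and CALR stood at the opposite ends of the genes listed here in the cyclopamine comparison.
HSPA5, chr9:125241294-125241593, minus strand: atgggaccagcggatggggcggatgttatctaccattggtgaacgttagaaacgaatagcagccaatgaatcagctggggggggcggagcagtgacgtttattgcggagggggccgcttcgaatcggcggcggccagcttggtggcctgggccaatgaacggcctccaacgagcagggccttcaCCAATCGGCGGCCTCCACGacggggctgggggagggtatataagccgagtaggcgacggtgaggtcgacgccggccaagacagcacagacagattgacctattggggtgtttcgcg
CALR, chr19:12938359-12938658, plus strand: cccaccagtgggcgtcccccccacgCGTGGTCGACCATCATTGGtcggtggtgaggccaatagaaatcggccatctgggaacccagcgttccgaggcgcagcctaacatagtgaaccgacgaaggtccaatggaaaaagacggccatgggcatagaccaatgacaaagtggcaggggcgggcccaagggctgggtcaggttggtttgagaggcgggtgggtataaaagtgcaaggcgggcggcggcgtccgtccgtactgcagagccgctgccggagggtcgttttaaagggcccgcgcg
A match of letters does not show that a factor was bound, and binding was not measured by these arrays.

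With cyclopamine, HSPA5 was the 1 gene of the 34 at least 2-fold higher than with DMSO (2.94%, against 4.8% of all 10236 genes), and CALR and P4HB were the 2 at least 2-fold lower (5.88%, against 6.44%). With GANT61, DNAJB9 was the 1 gene at least 2-fold higher (2.94%, against 8.28% of 10292 genes), and 7 were at least 2-fold lower, namely P4HB, CREB3L2, CALR, MBTPS1, PDIA5, HYOU1 and PDIA6 (20.6%, against 9.77%). Both comparisons use the same DMSO array, so their results are not independent. The 34 genes had a median log2 difference of 0.19 in the cyclopamine comparison and −0.041 in the GANT61 comparison, beside 0.032 and 0.022 for all genes. The shares of higher genes, and of lower genes with cyclopamine, were thus at or below those of all genes. When the arrays were scaled on the reference genes, none of the 34 was 2-fold lower with either compound. On that scale 7 were 2-fold higher with cyclopamine and 11 with GANT61, among them CREB3, which was not above background with DMSO. This scaling raises every gene by the same log2 amount in a comparison with DMSO, and the shares of all genes after it were not counted. These counts therefore do not set the 34 apart from other genes. With the median of all genes subtracted instead, the median of the 34 was 0.16 with cyclopamine and −0.064 with GANT61.

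**Figure D1:**
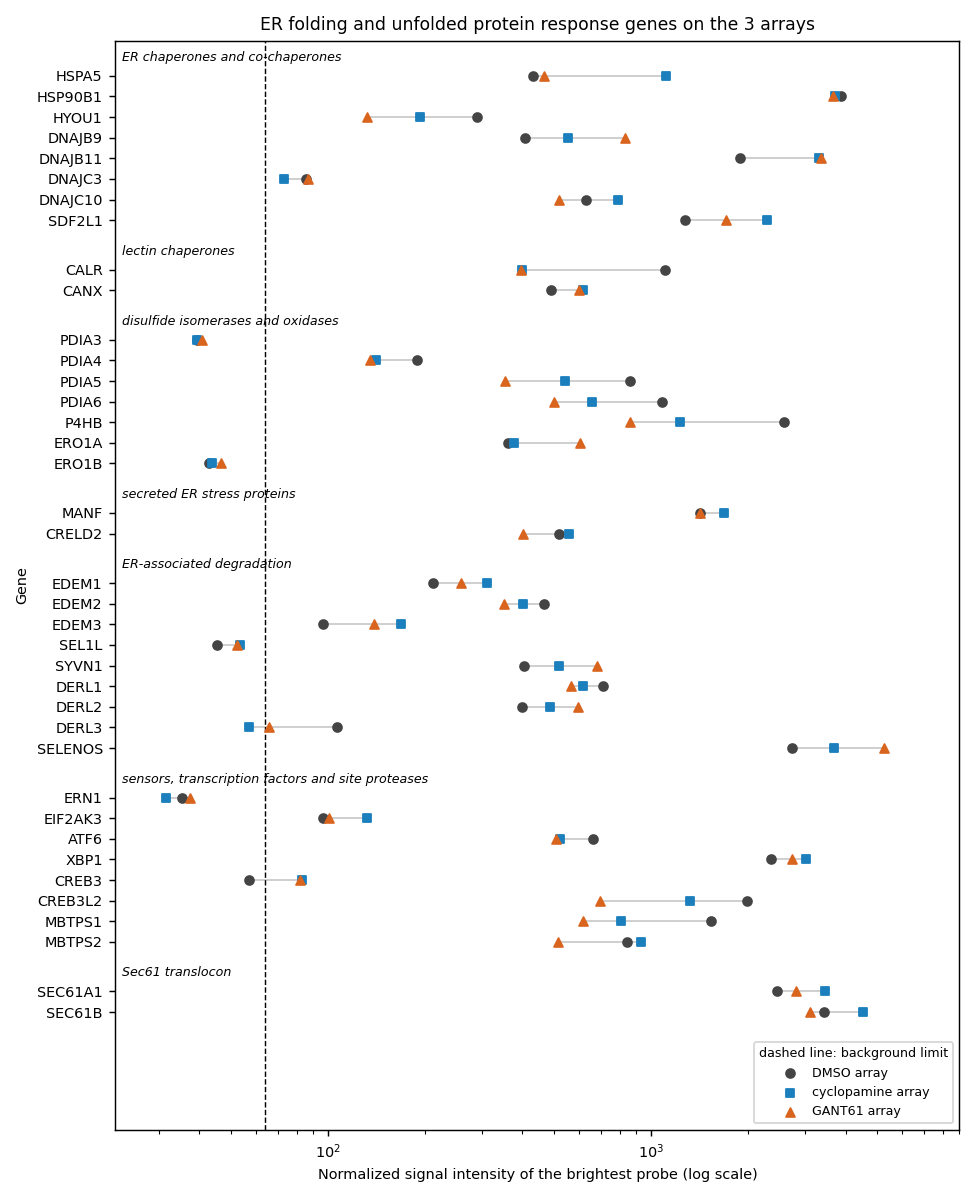
Normalized signal intensity of the brightest probe (log axis) for the 38 genes with a probe, by role, with 1 point for each of the DMSO, cyclopamine and GANT61 arrays and the background limit of 63.75 as a dashed line. The cyclopamine point of HSPA5 stands at 1110.3, away from 432 and 466, and the DMSO point of CALR at 1105, away from 398 and 395. Probes differ in how strongly they bind, so levels compare between arrays and not between genes.

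Among the ER chaperones, the HSP70 and its partners did not move as one. HSPA5 (BiP), the ER HSP70 that binds unfolded chains and holds the sensors inactive, had intensities of 432, 1110.3 and 466, in the order DMSO, cyclopamine, GANT61 that all values below keep. Its level was thus 2.57-fold higher with cyclopamine, a log2 difference of 1.36 that ranked 147 from the top among 10236 genes, while that with GANT61 was 0.11, inside the spread between probes. Reference-gene scaling put these at 1.90 and 0.84. HSPA5 has 1 probe. SDF2L1, an ER protein that works with BiP and J proteins, had 1273, 2290 and 1711, which are log2 differences of 0.85 and 0.43. DNAJB11 (ERdj3), a J protein that brings unfolded chains to BiP, had 1886, 3301 and 3358, near each other on the treated arrays and below 2-fold. DNAJB9 (ERdj4), a J protein that acts in degradation and in the repression of IRE1, was lowest with DMSO at 408, between with cyclopamine at 552 and highest with GANT61 at 832. Its log2 difference of 1.03 with GANT61 was just past 2-fold and fell short of it after normexp background correction.

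Other chaperones were level or went the other way. HSP90B1 (GRP94), the HSP90 of the ER, had 3879, 3697 and 3663, differences of −0.069 and −0.083 that are small beside the spread between probes. Reference-gene scaling put these at 0.47 and 0.65. HYOU1 (GRP170), which exchanges nucleotide on BiP, had 289, 192 and 132. Its log2 differences were −0.59 and −1.13, and its second probe gave −0.54 and −0.96. DNAJC10 (ERdj5), which reduces disulfides, had 630.0, 788 and 519.8, and DNAJC3 (p58IPK), a J protein also known as an inhibitor of PERK, stayed dim at 85.8, 73.1 and 87.1.

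The lectin chaperones hold glycoproteins through their sugars while they fold, and this pair differed on the arrays. CALR (calreticulin), the soluble lectin, had 1105, 398 and 395. The treated arrays were alike and 2.78-fold and 2.80-fold below DMSO, by 1 probe. CANX (calnexin), its membrane-bound relative, had 489, 615 and 599, a log2 difference of 0.33 and 0.29, while its second probe gave 0.060 and 0.049. Scaled on the reference genes, CALR stood at log2 differences of −0.94 and −0.75 and CANX at 0.87 and 1.03. CALR thus stayed lower, while CANX, already higher, could not change direction under a scaling that raises every gene.

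The 4 protein disulfide isomerases above background were all lower on the treated arrays than on the DMSO array. P4HB (PDI), the main isomerase and also a subunit of collagen prolyl 4-hydroxylase, had 2571, 1231 and 862. Its log2 differences of −1.06 and −1.58 were the lowest of its class. PDIA6 (P5), which also binds BiP and IRE1, had 1082, 658 and 502. PDIA5, an isomerase linked to the activation of ATF6, had 858, 541 and 352. PDIA4 (ERp72) had 189, 141 and 135, differences of −0.43 and −0.49 of about the size of the spread between probes. Each of the 4 has 1 probe, and PDIA3 (ERp57) had only values near 40, below the background limit. ERO1A, the oxidase that recharges PDI with disulfides, went the other way, with 362, 376 and 605, which is level with cyclopamine (0.058) and higher by 0.74 with GANT61. Scaled on the reference genes, P4HB was at −0.53 and −0.85, PDIA5 at −0.13 and −0.55 and PDIA6 at −0.18 and −0.38. PDIA4 turned to 0.11 and 0.24. On that scale, only P4HB with both compounds and PDIA5 with GANT61 differed by more than the spread between probes.

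MANF and CRELD2, small ER proteins that are released under stress, were near their DMSO level on the deposited scale. MANF, a trophic factor, had 1417, 1679 and 1417. CRELD2, a protein with EGF-like repeats, had 521, 557 and 402, log2 differences of 0.097 and −0.37. With reference-gene scaling, MANF was at 0.78 and 0.73 and CRELD2 at 0.63 and 0.36.

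**Figure D2:**
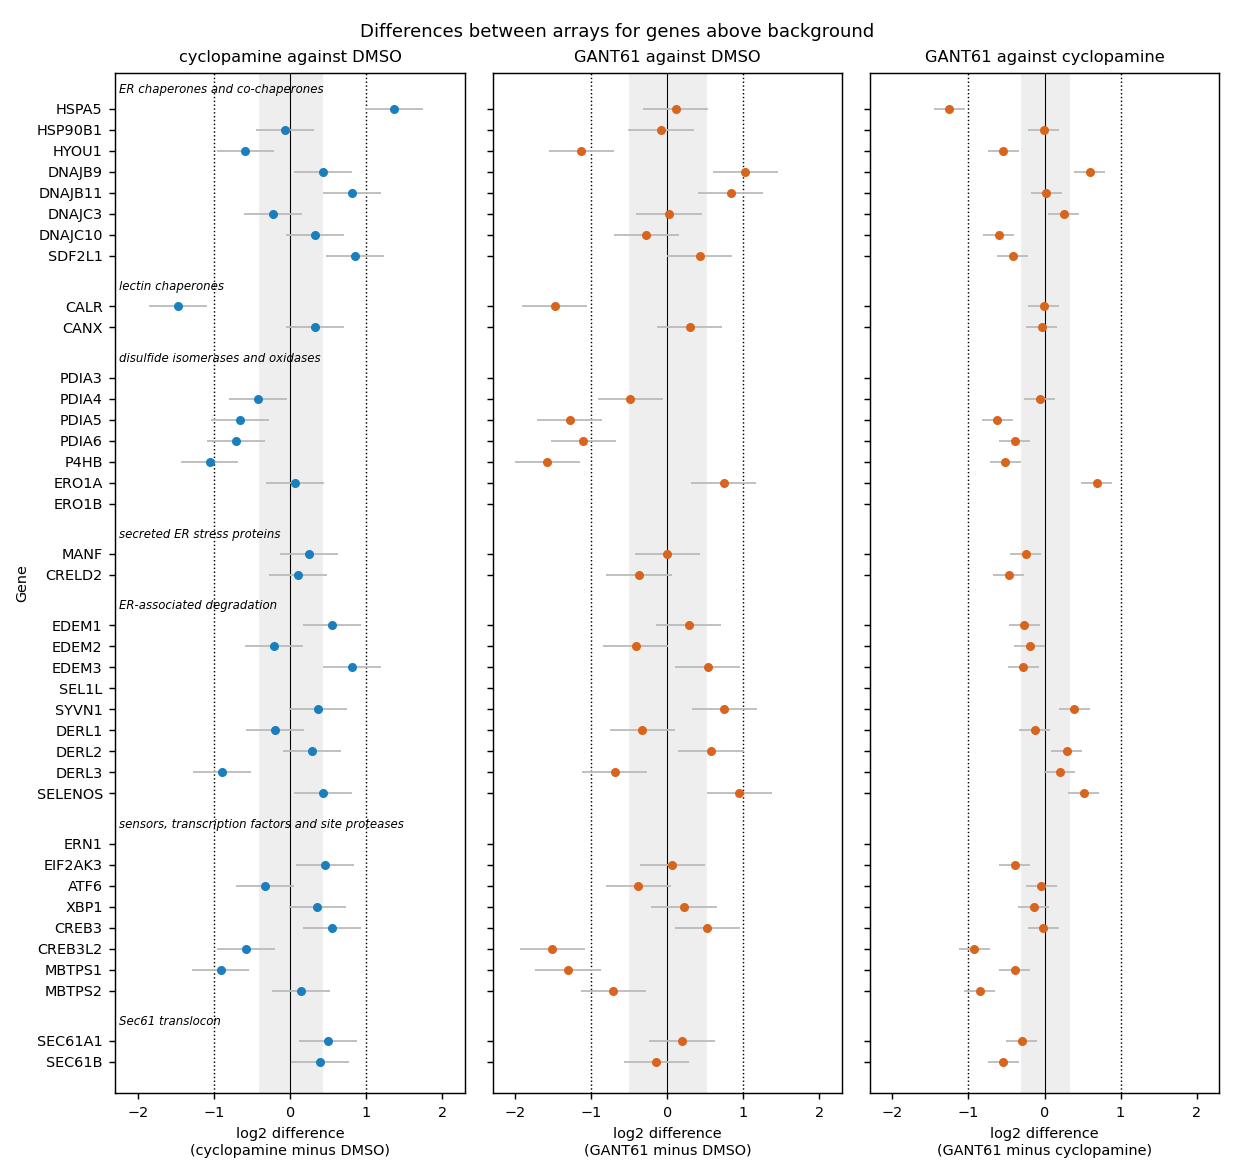
Log2 difference of the brightest probe for each gene above background in the comparison, for cyclopamine against DMSO, GANT61 against DMSO and GANT61 against cyclopamine. Error bars are the SD between probes of one gene, estimated from the median absolute deviation (0.38, 0.43 and 0.20). Dotted lines mark 2-fold and the grey band holds the middle 50 percent of all genes. HSPA5 stands to the right at 1.36 with cyclopamine and to the left at −1.25 in the direct comparison, and P4HB, PDIA5 and PDIA6 lie left of 0 in all 3 panels.

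None of the 8 genes of ER-associated degradation above background passed 2-fold in any comparison, where 2.38% to 9.77% of all genes did in each direction. Scaled on the reference genes, EDEM1 and EDEM3 were 2-fold higher with cyclopamine, and these, SYVN1, DERL2 and SELENOS with GANT61. That scaling raises all genes alike. With background subtraction, EDEM3 and DERL3 passed 2-fold with cyclopamine and DERL3 with GANT61. SELENOS (VIMP), a selenoprotein that ties the ATPase p97 to the ER membrane, had 2733, 3684 and 5265. Its log2 difference with GANT61 was 0.95 by this probe, 0.52 by its second and −0.051 by another, dim one. SYVN1 (HRD1), the membrane ubiquitin ligase of this route, had 405, 520 and 681, a difference of 0.36 and 0.75. Its other probe read 75.5 with DMSO and was not above background on the treated arrays, at least 1.18-fold lower on each, so the direction for SYVN1 is not settled by these probes. DERL2 (Derlin-2), part of the membrane exit complex, had 399, 485 and 594, and its dimmer probe likewise went the other way, at −0.44 and −0.26.

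The mannosidase-like EDEM proteins, which mark glycoproteins for degradation, differed among themselves. EDEM1 had 212, 310.0 and 258, EDEM3 had 96.4, 169 and 139, and EDEM2 had 466, 400.5 and 350. EDEM1 and EDEM3 were thus higher on the treated arrays and EDEM2 lower, each by less than 2-fold. DERL1 (Derlin-1) had 709, 616 and 564. DERL3 (Derlin-3), whose RNA is typically induced by stress, had 106 with DMSO and 65.8 with GANT61 and was not above background with cyclopamine, a level at least 1.67-fold lower.

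On the deposited scale, the sensors themselves were dim or changed little. EIF2AK3 (PERK), the kinase that slows translation, had 96.4, 132 and 101. ATF6, which is cut in the Golgi to free its transcription factor, had 662, 524 and 508. ERN1, the kinase and nuclease that splices XBP1, had values of 31.4 to 37.4, below the background limit on every array. XBP1, its target, had 2353, 3015 and 2734 by the brighter probe, log2 differences of 0.36 and 0.22. The annotation ties that probe to the unspliced transcript and the other to the spliced one, which read 2136, 1984 and 1832, differences of −0.11 and −0.22. The transcripts differ by a short intron only and the probe sequences were not examined here, so these values do not measure splicing. Before any scaling, the differences of both XBP1 probes are inside the spread between probes. Reference-gene scaling put EIF2AK3 at 0.99 and 0.80, ATF6 at 0.20 and 0.35 and XBP1, by its brighter probe, at 0.89 and 0.95.

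The proteases that cut ATF6, and a related membrane-bound factor, were lower with GANT61. MBTPS1 (site-1 protease), which makes the first cut in ATF6 and in the SREBP factors, had 1529, 810 and 618. Its log2 differences were −0.92 and −1.31, and the second probe gave −0.80 and −0.82. MBTPS2 (site-2 protease), which makes the following cut inside the membrane, had 844, 932 and 516, which is 0.14 with cyclopamine and −0.71 with GANT61, and −0.27 and −0.50 by its dimmer probe. CREB3L2 (BBF2H7), an ATF6-like factor known in mouse cartilage for inducing genes of ER export, had 1987, 1324 and 696. Its difference of −1.51 with GANT61 ranked 331 from the bottom of 10292 genes, by 1 probe. CREB3 (Luman), another factor of this family, was not above background with DMSO and read 83.2 and 82.2 on the treated arrays, at least 1.31-fold and 1.29-fold higher. Scaled on the reference genes, MBTPS1 was at −0.38 and −0.58 and CREB3L2 at −0.050 and −0.78, while MBTPS2 was at 0.68 with cyclopamine and at 0.022 with GANT61.

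Both measured subunits of the Sec61 channel were highest with cyclopamine. SEC61A1, the pore itself, had 2456, 3465 and 2809.5. SEC61B, a small tail-anchored subunit, had 3440, 4529 and 3107. Their log2 differences with cyclopamine were 0.50 and 0.40, close to the spread between probes. With reference-gene scaling they were 1.03 and 0.93.

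Set directly against each other, at the same 20 μM and 48 h, the treated arrays differed most in HSPA5. Its level with GANT61 was 2.38-fold below that with cyclopamine, a log2 difference of −1.25 that ranked 162 from the bottom of 10141 genes. It was the 1 gene of the 34 that was 2-fold lower (2.94%, against 3.5% of all genes), and none was 2-fold higher (against 2.38%). Of the other genes that were lower with GANT61, the next were CREB3L2 at −0.93, MBTPS2 at −0.85, PDIA5 at −0.62 and DNAJC10 at −0.60. ERO1A at 0.68, DNAJB9 at 0.59, SELENOS at 0.52 and SYVN1 at 0.39 were higher with GANT61. In all, 26 of the 34 genes were lower with GANT61 than with cyclopamine, where 48.6% of all genes were, and the median was −0.22, beside 0.015 for all genes. After scaling on the reference genes, 17 of the 34 were lower. That scaling moves every gene by the same amount, and the share of all genes lower after it was not counted. All 7 of the sensors, factors and site proteases above background were among the 26, some by very little (CREB3 by −0.017 and ATF6 by −0.043), and 4 of the 7 were lower after that scaling, without ATF6, XBP1 and CREB3. The DMSO array has no part in these differences before scaling. However, each array's scaling factor was the median difference of the reference genes from DMSO, so the scaled values depend on that array. Between the treated arrays themselves, the reference genes had a median log2 difference of −0.072. Scaling by the factors from DMSO moved the median of the 34 to −0.024 and left HSPA5 at −1.06, CREB3L2 at −0.73 and MBTPS2 at −0.66. With the median of all genes subtracted instead, the median of the 34 was −0.24.

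**Figure D3:**
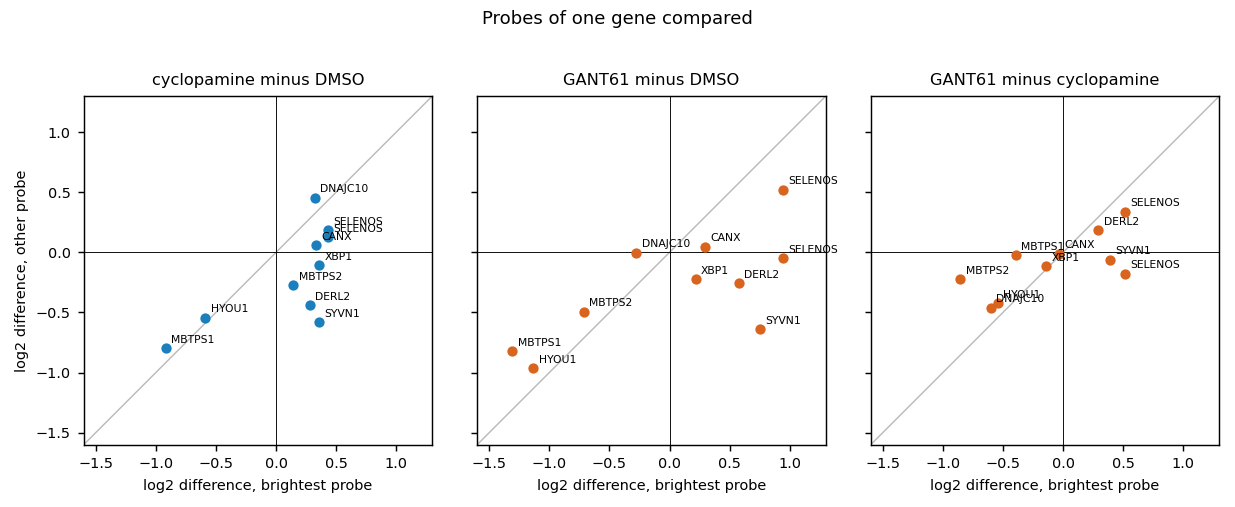
Log2 difference of the brightest probe (horizontal) against that of each other probe above background (vertical) of the same gene, for the 10 pairs of the 9 genes that have them, in the 3 comparisons, with the line of equal values in grey. HYOU1 lies near the line and MBTPS1 below 0 against DMSO, while the SYVN1 and DERL2 pairs have opposite signs there. The other SYVN1 probe was not above background on the treated arrays, so its point has only a bound.

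The probe pairs show how far a single probe can be relied on here. Of the 10 pairs, 6 had the same sign with cyclopamine against DMSO, 6 with GANT61 against DMSO and 8 with GANT61 against cyclopamine. Without the SYVN1 pair, whose other probe was not above background on the treated arrays, these were 6, 6 and 8 of 9 pairs. The median gap within those 9 was 0.27, 0.43 and 0.14 on the log2 scale, and the largest was 0.997, for SELENOS and its dimmest probe with GANT61. HSPA5, CALR, P4HB, PDIA5, PDIA6, DNAJB9 and CREB3L2 have no second probe.

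The genes with an ERSE or ERSE-II did not share a direction against DMSO. Of the 9 above background, 4 were lower and 5 higher with cyclopamine, from −1.47 for CALR to 1.36 for HSPA5, with a median of 0.097. With GANT61, 5 were lower and 4 higher, from −1.48 to 0.43, and CALR, HYOU1 and PDIA6 were 2-fold lower. HSP90B1, which carries an ERSE at 2 places in its window, was level in both on the deposited scale. Against cyclopamine, all 9 were lower with GANT61, as were 16 of the 23 with a window and neither element, and CALR, HSP90B1 and CANX by no more than −0.037. Scaled on the reference genes, CALR, HSP90B1, CANX and XBP1 were higher in that comparison. The Spearman correlation between the GC content of the windows and the log2 difference was −0.011 for cyclopamine and 0.15 for GANT61 across the 32 genes with both values, and of −0.071 and −0.059 across all genes, which share the same arrays.

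**Figure D4:**
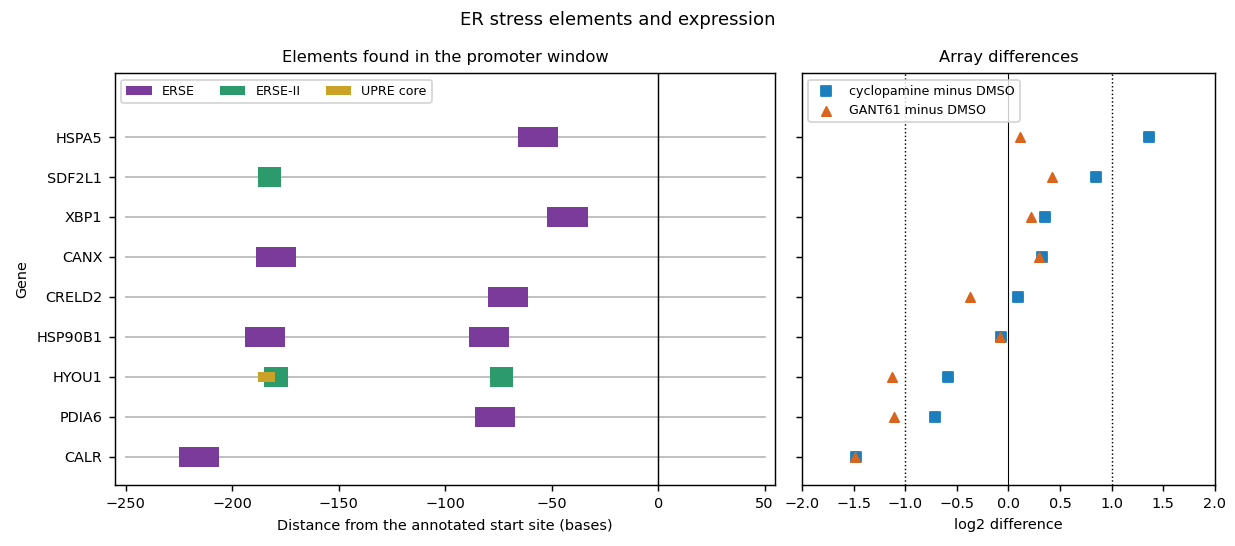
Left, positions of ERSE, ERSE-II and the TGACGTGG core (UPRE core) in bases from the annotated start site, for the 9 genes with an ERSE or ERSE-II that were above background. Right, their log2 differences from DMSO with cyclopamine (squares) and GANT61 (triangles), ordered by the former from −1.47 for CALR to 1.36 for HSPA5. For CANX, which has several start sites, the window with the most distant site is drawn.

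The rest of the ER and stress machinery was read from 9 further gene lists. Of 149 genes, 127 were above background in the cyclopamine comparison, of which 8 were 2-fold lower as measured (6.3%, against 6.44% of all genes) and 10 higher (7.87%, against 4.8%), with a median log2 difference of 0.17. With GANT61, 13 of 126 were lower (10.3%, against 9.77%) and 15 higher (11.9%, against 8.28%), with a median of 0.028. CHAC1, counted as lower with each compound, was dim on the treated arrays, and without it 7 and 12 were at least 2-fold lower. After normexp and quantile normalization, 4 in place of 8 were lower with cyclopamine. The reference-scaled counts were 0 lower and 39 higher with cyclopamine, and 0 lower and 46 higher with GANT61. No share of all genes was counted on that scale, which raises every gene alike.

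In the arm downstream of PERK, 3 of 14 genes were 2-fold higher with cyclopamine (21.4%, against 4.8% of all genes) and 4 with GANT61 (28.6%, against 8.28%), and none but CHAC1 read 2-fold lower. PPP1R15A (GADD34), which directs removal of the phosphate that PERK puts on eIF2, had 404, 1213 and 2800.1, log2 differences of 1.59 and 2.79. TRIB3, a pseudokinase induced by ATF4, had 969, 2183 and 2014. DDIT3 (CHOP), the death-linked factor of this arm, had 447, 953 and 437, so that, like HSPA5, it was 2-fold higher than DMSO with cyclopamine and near it with GANT61, although at 0.70 there when scaled on the reference genes. Its difference between the treated arrays was −1.13. ATF4, which is controlled mainly through translation, had 7523, 11575 and 11369 by its brightest probe, differences of 0.62 and 0.60, while its second probe gave −0.34 and −0.67. CHAC1, a target of ATF4 that degrades glutathione, had 123 with DMSO and was not above background on the treated arrays, at least 1.93-fold lower on each. The members of this arm thus went opposite ways.

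Enzymes that act beside the lectins also differed. Among 10 genes of glycan processing and glycoprotein quality control, 1 was 2-fold higher with each compound (10%, against 4.8% of all genes with cyclopamine and 8.28% with GANT61). It was UGGT1, the folding sensor that returns glycoproteins to calnexin and calreticulin, with 211, 663 and 596. Its second probe was higher by 0.83 and 0.58. MLEC (malectin), a lectin for glucosylated glycans, had 939, 631 and 341, and its other probe matched it, at −0.57 and −1.46. It was the 1 gene of the 10 that was 2-fold lower with GANT61 (10%, against 9.77%), and none was with cyclopamine (against 6.44%). Of the 11 subunits of the oligosaccharyltransferase, which attaches the glycans, KRTCAP2 and OSTC were 2-fold higher with cyclopamine (18.2%, against 4.8%) and none lower (against 6.44%). However, a second probe of OSTC gave 0.35. OST4, a very small subunit, was the 1 that was 2-fold lower with GANT61 (9.09%, against 9.77%), with 3319, 2932 and 1398. None of the 11 was 2-fold higher with GANT61 (against 8.28%).

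Of 22 other genes of targeting and translocation, SSR4, a subunit of the TRAP complex at the channel, differed most between the compounds, with 4161, 6576 and 2661. Of these 22, 2 were 2-fold lower with cyclopamine (9.09%, against 6.44% of all genes) and 1 higher (4.55%, against 4.8%). With GANT61, 1 was lower (4.55%, against 9.77%) and 2 higher (9.09%, against 8.28%). SRPRA and SRPRB, the subunits of the receptor for the signal recognition particle, went opposite ways, SRPRA from 427 to 196 and 170 and SRPRB from 1289 to 1821 and 2805. Among 20 other degradation genes, VCP, which encodes the p97 ATPase that SELENOS binds, had 399, 523 and 972, and FAF2, a p97 cofactor at the ER, had 944, 1069 and 2071. Both were thus 2-fold higher with GANT61 and less than 2-fold higher with cyclopamine, by 1 probe each. In this list, 4 of the 20 were 2-fold higher with GANT61 (20%, against 8.28% of all genes) and 2 lower (10%, against 9.77%). With cyclopamine, 2 were lower (10%, against 6.44%) and none higher (against 4.8%). OS9, a lectin that hands glycoproteins to HRD1, had 199, 91.8 and 78.7. Of 14 other luminal oxidoreductases above background in the GANT61 comparison, TXNDC5, a PDI relative, had 1630.5, 1078 and 764, at −0.60 and −1.09, with a dim second probe at −0.74 and −0.28, and GPX8, a peroxidase that works with ERO1A, had 804, 2303 and 1809, with a second probe at 1.14 and 0.098. Of these 14, 2 were 2-fold lower with GANT61 (14.3%, against 9.77%) and 1 higher (7.14%, against 8.28%). With cyclopamine, none of 13 was lower (against 6.44%) and 1 was higher (7.69%, against 4.8%).

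**Figure D5:**
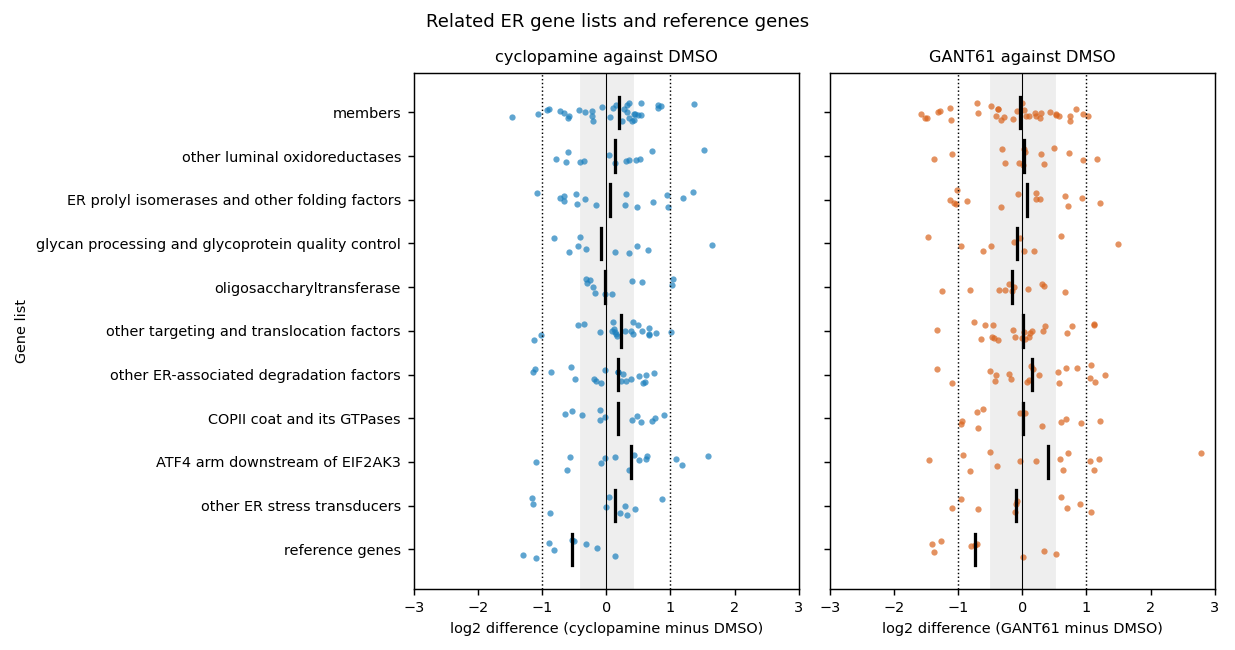
Log2 difference of each gene above background (points) in the 34 genes described here (members), in 9 related ER lists and in the reference genes, for cyclopamine and for GANT61 against DMSO, with list medians as black bars, 2-fold as dotted lines and the middle 50 percent of all genes in grey. The reference genes have medians of −0.54 and −0.73, and PPP1R15A is the point at 2.79 in the ATF4 arm.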

How the data were processed

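The authors deposited a normalized signal intensity, on a linear scale, for each of 47319 probes on 3 Illumina HumanHT-12 v4 arrays, 1 per condition. No source used here names the normalization software. No background subtraction is apparent, the lowest intensity being 27.1 on each array. A second table, of signals and detection values before normalization, has 6 columns whose headings match no sample, and they were not used. Probes were named by the platform annotation (30110 with 1 gene symbol, 8 with several, left out, and 17201 unnamed here), updated through gene identifiers of GRCh38.p14 for 30071 probes. Promoter sequences are from RefSeq on that build.

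The log2 intensity of the brightest probe was compared between arrays without a test, with a 2-fold rule in place of the study's Illumina difference score. Precision is limited by the number of arrays. The 40 genes and all lists were chosen with earlier results of these data known. Named genes are the 40, up to 4 of each related list with the largest differences, and ATF4, DDIT3 and GAPDH, and NFYA and NFYB were added after their values were seen. The steps were tested on simulated arrays. The alternatives were normexp with an offset of 50 and quantile normalization, subtraction of background with an offset of 16, scaling on reference genes, subtraction of the median of all genes, the mean of all probes, other filters and other fold thresholds. Protein sequences were not used here. Python 3.11.15, numpy 2.4.6, pandas 2.3.3, matplotlib 3.10.9, R 4.3.3 and limma 3.58.1 were used.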

Additional observations from a re-analysis of the deposited data

How the results depend on the processing

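No paired analysis was possible because each condition has 1 array. Scaling on the reference genes changed most. It left 0 of the 34 genes 2-fold lower with cyclopamine and 0 with GANT61, and made 7 and 11 higher. The medians moved to 0.73 and 0.69, and to −0.024 between the treated arrays. This scaling moves every gene by the same amount in a comparison, and shares of all genes after it were not counted. The sign of 6 genes with cyclopamine, 10 with GANT61 and 9 between the treated arrays changed under it. A gene past 2-fold could not change sign, because the shift was smaller than 2-fold in each comparison. Subtraction of background with an offset of 16 made 2 genes higher with cyclopamine in place of 1, and normexp left 0 higher with GANT61 in place of 1. With the mean of all probes the median with cyclopamine was −0.0028, and with no filter on dim probes that between the treated arrays was −0.14. At 1.5-fold, cyclopamine had 8 genes lower and 4 higher, 5 were higher with GANT61, and 5 were lower and 2 higher between the treated arrays. At 3-fold the counts were 0 in both directions in each comparison. The cause of these shifts was not tested. Dim probes limit what can be read for PDIA3, ERO1B, SEL1L, ERN1, DERL3 and CREB3.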

Other observations

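Further gene groups of the secretory route were read from the same arrays. Of 12 genes of the COPII coat, which forms vesicles leaving the ER, none passed 2-fold with cyclopamine (against 6.44% lower and 4.8% higher among all genes). With GANT61, 1 was 2-fold higher (8.33%, against 8.28%) and none lower (against 9.77%). The higher gene was SEC24B, a cargo-binding subunit, which had intensities of 170.1, 287 and 393, in the order DMSO, cyclopamine, GANT61 kept below. Its second probe gave log2 differences of only 0.15 and 0.29. TFG, which organizes the exit sites, had 3751, 4937 and 7039, with a second probe the other way at −0.46 and −0.30, and SEC13, a coat subunit, had 898, 689 and 461, with a second probe at −0.95 and −1.36 on the log2 scale. Of 14 prolyl isomerases and other folding factors, 4 were 2-fold lower with GANT61 (28.6%, against 9.77%) and 1 higher (7.14%, against 8.28%). With cyclopamine, 1 of 16 was lower (6.25%, against 6.44%) and 2 higher (12.5%, against 4.8%). Among those lower with GANT61, FKBP2 had 567, 450 and 259, with a dim second probe at 0.42 and −0.020. PPIC (cyclophilin C) had 244, 558 and 283, and its second probe was likewise highest with cyclopamine, at 174, 555 and 327. SIL1, which exchanges nucleotide on BiP as HYOU1 does, had 833, 2134 and 1581, opposite in direction to HYOU1, although its second probe gave only 0.17 and −0.39. HSPA13, another HSP70 of the ER, had 90.4, 126 and 208, with a second probe higher by 0.97 and 0.92.

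Among the other ER stress factors, NFYC, a subunit of the NF-Y complex that binds the CCAAT end of the ERSE, had 509 with DMSO, 232 with cyclopamine and 240 with GANT61. The other NF-Y subunits, chosen after their values were seen, differed from DMSO by less than the spread between probes, NFYA at 73.4, 85.4 and 67.6 and NFYB at 89.9, 89.4 and 85.1. Between the treated arrays, NFYA differed by −0.34, past the spread of 0.20 there, and NFYB by −0.072. TMBIM6 (BAX inhibitor 1), a membrane protein that restrains IRE1, had 8921, 4007 and 5546. MAP3K5 (ASK1), a kinase activated through IRE1, had 168, 229 and 353.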
